A study of Homo sapiens with 18 samples.

Results

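The genes examined here encode laminin-332 chains and the hemidesmosome, the junction that holds an epithelial cell to the basement membrane. They are the 8 genes LAMA3, LAMB3, ITGA6, ITGB4, COL17A1, PLEC, DST and CD151, chosen by name from the 21411 genes of the deposited tables, and all 8 had a row and passed the filter on low counts. The question is how their mRNA levels depend on Jagged1, a Notch ligand encoded by JAG1, in a triple-negative breast cancer (TNBC) cell line.

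Laminin-332 is a trimeric basement membrane protein, and LAMA3 and LAMB3 encode its α3 and β3 chains. The α6β4 integrin binds it at the cell surface, where collagen XVII and the tetraspanin CD151 join the complex, and the plakins plectin and BPAG1 (from PLEC and DST) tie it to the intermediate filaments in the cell. In carcinoma cells, α6β4 and laminin-332 are also known away from stable junctions, in migrating and invading cells.

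The RNA came from MDA-MB-231 cells, an established TNBC line with a mesenchymal character, grown as spheroids in Matrigel (50000 cells seeded at 2 mg/ml) and collected on day 7. Jag1WT is the parental line with unedited JAG1, while the Jag1KO line pools single-cell clones with JAG1 edited by Cas9. Jag1KO cells carrying a plasmid with Jagged1 cDNA (Jag1KO + rescue) or the empty plasmid (Jag1KO + ctrl) were both selected with G418, and parental cells were transfected with nontargeting (siCtrl) or JAG1-targeting (siJag1) siRNA hours before seeding. The 6 groups had 3 libraries each, with 10330581 to 18327890 reads counted on genes per library. The clones share a history of transfection and sorting that the parental cells lack, so that editing of JAG1 and this history cannot be told apart in Jag1WT against Jag1KO. Matrigel itself is a basement membrane extract rich in laminin, and all 6 groups grew in it.

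The level of JAG1 mRNA, given as CPM (read counts scaled to library size with TMM), was 513 ± 76.7 in Jag1WT and 157 ± 45.1 in Jag1KO (mean ± SD, n = 3 here and below). It was 612 ± 67.9 in Jag1KO + rescue, 131 ± 18.7 in Jag1KO + ctrl, 532 ± 92.4 in siCtrl and 167 ± 35.7 CPM in siJag1, with no overlap between the groups of any of the 3 comparisons. As a measure of growth state, the mean of log2(CPM + 1) over 97 S and G2/M phase genes ranged from 4.10 to 6.09. Jag1KO replicate 1 (4.11, against 5.55 and 5.67), Jag1KO + ctrl replicate 3 (4.41, against 5.72 and 6.09) and siJag1 replicate 2 (6.07, against 4.32 and 4.41) stood apart from their groups. Jag1KO + rescue had 4.18, 5.02 and 4.23, below Jag1KO + ctrl replicates 1 and 2. Jag1WT had 4.14, 4.91 and 4.10, below Jag1KO replicates 2 and 3. Growth state thus moved with both the rescue and the knockout comparison, although the groups of each overlapped in it. The mesenchymal marker VIM was at 2180 to 4950 CPM. ESR1, the defining luminal marker, was at 0 in 17 of the 18 libraries, the fibroblast marker DCN at 0 in 15 and the basal epithelial keratin gene KRT14 at 0 in 17. Over the whole lists, the summed level of the 6 mesenchymal markers was 5780 to 9420 CPM, that of the 7 luminal markers 15.3 to 27.7 CPM and that of the fibroblast markers 3.29 to 10.9 CPM. The basal epithelial markers KRT14 and TP63 summed to 0.141 to 4.08 CPM, and KRT5 was not analysed here.

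Where sequence near a start site was at hand (RefSeq, GRCh38.p14, for LAMA3, LAMB3, ITGA6, COL17A1 and DST, 5 of the 8 genes), the 250 bases before each start were searched on both strands for 3 motifs. LAMA3 and LAMB3 are shown because their products join in 1 trimer while their mRNA levels went opposite ways, as described below. Capitals mark matches to TGANTCA, the AP-1 motif. The LAMA3 window is chr18:23872770-23873019 on the plus strand, before a start inside the gene. The LAMB3 windows are on the minus strand, chr1:209652426-209652675 before the outermost start and chr1:209651375-209651624 before a start inside the gene. A window before another internal LAMB3 start, chr1:209652330-209652579, overlaps the outermost one, held none of the 3 motifs and is not shown.
LAMA3, internal start: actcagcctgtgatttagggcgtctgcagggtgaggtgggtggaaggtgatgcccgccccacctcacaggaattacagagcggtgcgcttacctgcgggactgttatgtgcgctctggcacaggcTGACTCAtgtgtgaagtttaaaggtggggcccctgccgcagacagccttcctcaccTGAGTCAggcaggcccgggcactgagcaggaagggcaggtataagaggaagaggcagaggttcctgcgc
LAMB3, outermost start: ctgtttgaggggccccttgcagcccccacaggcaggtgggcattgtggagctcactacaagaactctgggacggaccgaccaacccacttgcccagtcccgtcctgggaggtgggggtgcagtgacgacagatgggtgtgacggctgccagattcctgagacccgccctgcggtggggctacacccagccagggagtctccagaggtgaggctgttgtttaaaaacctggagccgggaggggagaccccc
LAMB3, downstream internal start: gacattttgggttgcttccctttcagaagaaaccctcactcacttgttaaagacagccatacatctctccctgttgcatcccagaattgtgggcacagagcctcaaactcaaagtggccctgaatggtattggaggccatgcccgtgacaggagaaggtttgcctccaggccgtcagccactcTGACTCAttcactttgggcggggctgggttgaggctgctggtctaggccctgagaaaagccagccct
The AP-1 motif began 125 and 69 bases before the internal LAMA3 start and 67 bases before the downstream internal LAMB3 start. In all, 2 of the 10 windows of these genes held it, and 6.57% of 35114 windows of the same kind. TGGGAA, the core that the Notch effector RBPJ binds, was in 0 of the 10 windows, and 20.8% of all windows held it. The E-box CACGTG was in 2 of the 10 windows, 1 each of ITGA6 and DST, against 6.35% of all. These are letter matches in short windows and say nothing of binding.

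The 8 genes covered a wide range of levels. To set genes side by side, CPM was divided by the length of each gene in kb, the length being that implied by the deposited RPKM. On that scale the mean over the 18 libraries was 307 for LAMB3, 210 for CD151, 81.0 for ITGA6, 68.7 for PLEC, 22.0 for DST, 13.2 for LAMA3, 4.39 for ITGB4 and 1.71 CPM per kb for COL17A1. This order held in 12 libraries. PLEC came before ITGA6 in 5 others, so the order of these neighbours varied between libraries, and their difference was not tested. LAMB3 was above CD151 in 17 of the 18, and the order of DST, LAMA3, ITGB4 and COL17A1 was the same in all 18. The 2 receptor subunits were far apart, with ITGA6 at 98.6% and ITGB4 at 71.8% of genes ranked by mean CPM. COL17A1 rested on as few as 28 reads in a library, and ITGB4 on 53.

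**Figure D1:**
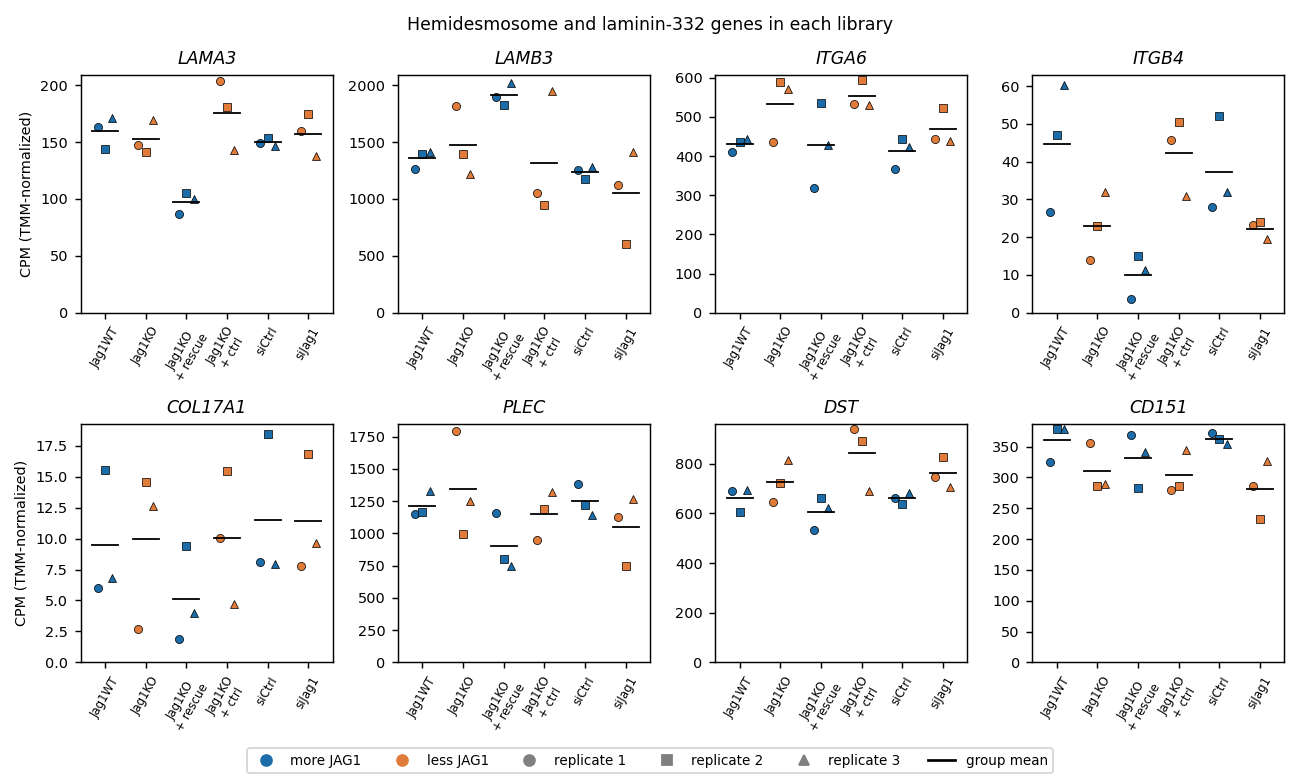
Level of each gene in CPM (vertical axis, from 0) in the 18 libraries of the 6 groups, with replicates as marks and the group mean as a line. All 3 Jag1KO + rescue libraries lie lowest for LAMA3, at 87.0 to 105 CPM, and ITGB4 reaches down to 3.61 CPM there.

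In Jag1WT against Jag1KO, a gene was called when the Benjamini-Hochberg adjusted p of edgeR's quasi-likelihood test over all genes was below 0.05 and the fold change above 1.5, and 0 of the 8 genes were called (0.706% of the 12890 tested were). At an unadjusted p below 0.05 there was 1 of the 8, ITGB4 (8.74% of all genes), and DESeq2 and limma on log2(CPM + 1) called 0 as well. In Jag1KO + rescue against Jag1KO + ctrl, 0 of 8 were called (0.00779% of 12837 tested). There, 3 had an unadjusted p below 0.05 (30.8% of all genes did), and DESeq2 called 2, LAMA3 and ITGB4 (12.3% of all genes), and limma 0. The 3 of 8 is thus near the share of all genes. The 2 of 8 is above the 12.3%, but 8 genes are too few to read this as a result about them. In siCtrl against siJag1, 0 were called by any of the 3 tools (0.0157% of 12773 tested by edgeR), and 2 had an unadjusted p below 0.05 (3.84% of all genes). With the replicate number as a block, which the pairing of these libraries allows, the calls over all genes there went from 2 to 4, none of them among the 8. In a fit of all 3 comparisons together over the 18 libraries, the 3 tools also called 0 (0.431% of 12757 tested by edgeR), with 4 at an unadjusted p below 0.05 (21.4% of all genes). Fold changes below are the group with more JAG1 over that with less.

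The median log2 fold change of the 8 genes was −0.10 in Jag1WT against Jag1KO, −0.43 with the rescue, 0.13 with the siRNA and −0.19 together. The medians of all genes tested lay between −0.01 and −0.00252 in these 4 fits. Groups did not overlap for 0 of the 8 genes in Jag1WT against Jag1KO (13.8% of all genes) and for 3 with the rescue, all lower (16% of all genes were apart in that direction). With the siRNA, 2 were higher without overlap (5.17% of all genes) and 1 lower (5.32%).

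**Figure D2:**
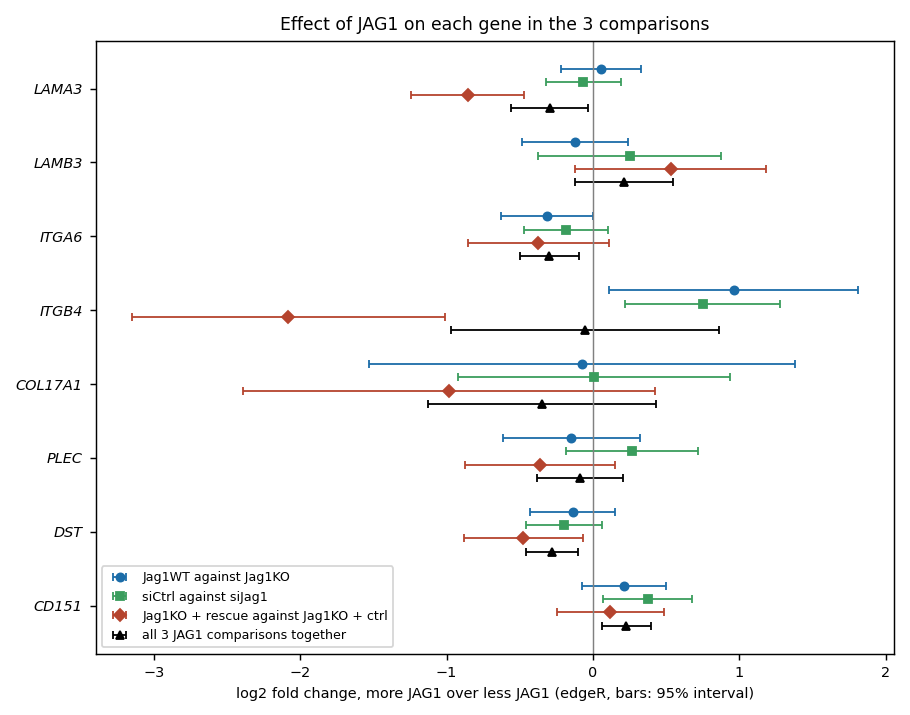
Log2 fold change (horizontal axis) of each gene, more JAG1 over less, in the 3 comparisons and in their joint fit, with 95% intervals from edgeR. ITGB4 lies at 0.96 and 0.75 in the knockout and siRNA comparisons and at −2.08 with the rescue plasmid.

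LAMA3 encodes the α3 chain, the part of laminin-332 that integrins recognize (Entrez gene 3909; chr18:23689453-23956222, plus strand, hg38). Its level was 163, 144 and 171 CPM in Jag1WT and 148, 141 and 170 CPM in Jag1KO. It was 87.0, 105 and 100 CPM in Jag1KO + rescue and 204, 181 and 143 CPM in Jag1KO + ctrl. The rescue libraries lay below all 15 other libraries, while the parental and knockout groups overlapped. siCtrl (150 ± 3.84 CPM) and siJag1 (157 ± 18.4 CPM) overlapped too. The log2 fold change was −0.86 with the rescue (SE 0.166, 1.81-fold lower, edgeR adjusted p = 0.104), against 0.06 for the knockout and −0.07 for the siRNA. The difference between the knockout and rescue effects was 0.94 (SE 0.206, edgeR adjusted p = 0.0572), and that between the siRNA and rescue effects 0.81 (SE 0.199, adjusted p = 0.0910). Without Jag1KO + ctrl replicate 3, the library with the low growth state, LAMA3 was called with the rescue (−0.98, edgeR adjusted p = 0.00408), as were 28.6% of all genes. With growth state as a covariate the log2 fold change was −0.62 (adjusted p = 0.348).

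LAMB3 encodes the β3 chain (Entrez gene 3914; chr1:209614870-209652425, minus strand). It had 1893, 1822 and 2023 CPM in Jag1KO + rescue and 1051, 945 and 1950 CPM in Jag1KO + ctrl. The rescue libraries were above 14 of the 15 others, the exception being Jag1KO + ctrl replicate 3. Levels were 1360 ± 78.1 CPM in Jag1WT, 1480 ± 309 in Jag1KO, 1240 ± 52.7 in siCtrl and 1050 ± 413 CPM in siJag1, where replicate 2 had 602 CPM. All 3 pairs of groups overlapped. The log2 fold change with the rescue was 0.53 (SE 0.283, edgeR adjusted p = 0.229). It became 0.93 without Jag1KO + ctrl replicate 3 (adjusted p = 0.00431, called, again among 28.6% of all genes) and 0.13 with growth state as a covariate (adjusted p = 0.804). For the knockout it was −0.13 and for the siRNA 0.25. The ratio of LAMB3 to LAMA3, in CPM per kb, was thus 43.0 to 53.9 in Jag1KO + rescue and 12.8 to 33.9 in Jag1KO + ctrl, without overlap. An exact two-sided permutation test of the log2 ratio gave p = 0.1, the smallest p that 3 libraries against 3 allow.

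**Figure D3:**
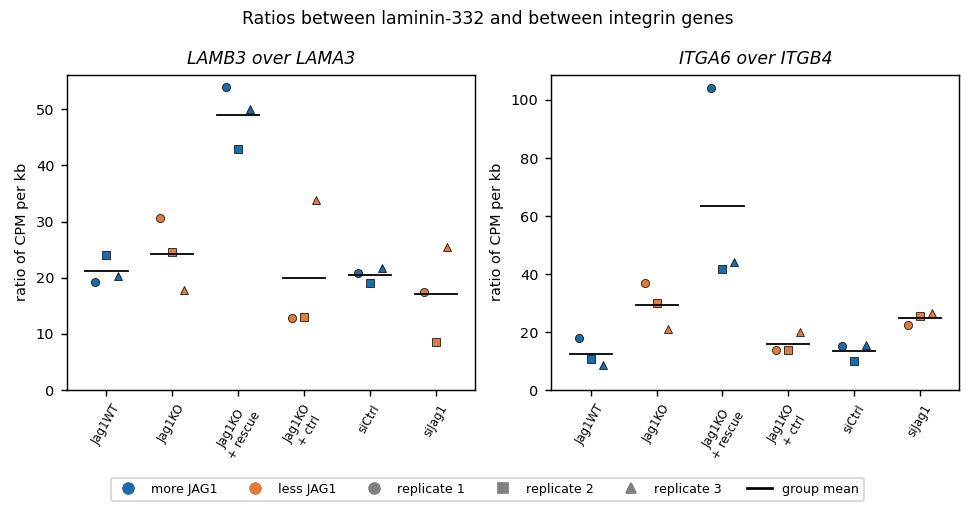
Ratios of CPM per kb of LAMB3 over LAMA3 and of ITGA6 over ITGB4 in each library (vertical axes from 0, group means as lines). The Jag1KO + rescue libraries are the highest in both, at 43.0 to 53.9 for LAMB3 over LAMA3 and at 41.8 to 104 for ITGA6 over ITGB4.

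ITGB4 encodes β4, the integrin subunit with a long cytoplasmic tail that binds plectin (Entrez gene 3691; chr17:75721328-75757818, plus strand). Its log2 fold changes were the largest of the 8 in each comparison, and they had opposite signs. There were 26.6, 47.1 and 60.3 CPM in Jag1WT and 14.0, 23.0 and 32 CPM in Jag1KO. In Jag1KO + rescue there were 3.61, 15.1 and 11.4 CPM, and in Jag1KO + ctrl 45.8, 50.5 and 30.9 CPM. The siRNA groups had 28.1, 52.1 and 31.9 CPM in siCtrl and 23.3, 24.0 and 19.4 CPM in siJag1. Less JAG1 thus went with less ITGB4 in the siRNA comparison without overlap and in the knockout with overlap. The plasmid with Jagged1 cDNA, in contrast, went with less ITGB4 than the empty plasmid, without overlap. Of the 15 other libraries, 14 lay above every rescue library, the exception being Jag1KO replicate 1. The log2 fold change was 0.96 for the knockout (SE 0.368, 95% interval 0.11 to 1.81, edgeR adjusted p = 0.480) and 0.75 for the siRNA (SE 0.23, 0.22 to 1.28, adjusted p = 0.974, or 0.401 with the replicate block). It was −2.08 for the rescue (SE 0.463, −3.15 to −1.01, 4.23-fold lower, adjusted p = 0.104), and −0.05 over the 3 together.

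The effects of the knockout and of the rescue on ITGB4 differed by 3.07 (SE 0.663, edgeR adjusted p = 0.0572) and those of the siRNA and the rescue by 2.85 (SE 0.57, adjusted p = 0.0687), both above 0.05. The knockout and siRNA effects differed by 0.21 (95% interval −0.85 to 1.26). None of the 8 genes passed in any of the 3 tests of a difference by edgeR (0.594%, 0.149% and 0.11% of all genes did, in the same order), with 2, 2 and 0 of the 8 at an unadjusted p below 0.05 (22.2%, 20% and 3.89% of all genes). DESeq2 called LAMA3 and ITGB4 in the first and the second, where it called 7.71% and 4.99% of all genes. Without Jag1KO + ctrl replicate 3, ITGB4 was called with the rescue (−2.26, adjusted p = 0.0168) and in both differences (3.26 and 3.04, adjusted p = 0.0111 and 0.0139). Without that library, however, 28.6% of all genes were called with the rescue and 19.9% and 15.1% in the differences, so these calls are not particular to ITGB4. With growth state as a covariate ITGB4 was at 1.42 for the knockout (adjusted p = 0.341) and at −1.55 for the rescue (adjusted p = 0.369). ITGB4 was also higher in Jag1KO + ctrl than in Jag1KO, where JAG1 was not altered on purpose, by 0.87 on the log2 scale (95% interval 0.14 to 1.61, adjusted p = 0.760).

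ITGA6 encodes α6, which pairs with β4 or β1 (Entrez gene 3655; chr2:172427354-172506459, plus strand). It had 410, 437 and 443 CPM in Jag1WT and 437, 589 and 572 CPM in Jag1KO. The corresponding levels were 428 ± 109 in Jag1KO + rescue, 553 ± 36.1 in Jag1KO + ctrl, 412 ± 40.5 in siCtrl and 469 ± 47.4 CPM in siJag1. The mean was lower with more JAG1 in each comparison, by log2 fold changes of −0.31, −0.38 and −0.18, but the groups overlapped each time. Together they gave −0.30 (SE 0.0951, 1.23-fold lower, edgeR adjusted p = 0.141). With growth state as a covariate ITGA6 was at −0.13 for the knockout, −0.20 for the rescue, −0.12 for the siRNA and −0.15 together (adjusted p of 0.666 or more). Leaving out single libraries moved the rescue value from −0.19 (without Jag1KO + rescue replicate 1) to −0.59 (without Jag1KO + rescue replicate 2). Per kb, ITGA6 exceeded ITGB4 8.64-fold to 104-fold in the single libraries. This ratio was 12.5 ± 4.94 in Jag1WT and 29.3 ± 7.93 in Jag1KO, 13.6 ± 3.15 in siCtrl and 24.9 ± 2.17 in siJag1, and 63.4 ± 35.2 in Jag1KO + rescue and 15.9 ± 3.72 in Jag1KO + ctrl. The groups were apart in all 3 comparisons, each with an exact permutation p = 0.1, the smallest possible, and so were Jag1KO + ctrl and Jag1KO, between which JAG1 was not altered on purpose. Of the other laminin receptor genes, ITGB1 (β1) had log2 fold changes of −0.03, 0.22 and −0.10 for the knockout, rescue and siRNA, and ITGA3 (α3, the partner of β1) 0.54, −0.01 and 0.44, with edgeR adjusted p of 0.150 or more throughout.

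COL17A1 encodes collagen XVII, a transmembrane collagen also known as BP180 (Entrez gene 1308; chr10:104031286-104085880, minus strand). Its level was the lowest of the 8 in every library, at 1.91 to 18.4 CPM. In Jag1WT there were 6.00, 15.6 and 6.85 CPM, and in Jag1KO 2.67, 14.6 and 12.6 CPM. Replicate 2 was the highest in each of the 6 groups, and the range within each group exceeded the differences between group means. Means were 5.10 in Jag1KO + rescue, 10.1 in Jag1KO + ctrl, 11.5 in siCtrl and 11.4 CPM in siJag1. The log2 fold changes were −0.08, −0.98 and 0.01 for the knockout, rescue and siRNA, with intervals of −1.53 to 1.38, −2.39 to 0.42 and −0.92 to 0.94. With growth state as a covariate the knockout comparison gave 1.26 (edgeR adjusted p = 0.00225), past the threshold (2.56% of all genes were called) and with the opposite sign, and the rescue 0.15 (adjusted p = 0.908).

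The plakins link the membrane proteins to keratin or vimentin filaments. PLEC, the gene of plectin (Entrez gene 5339; chr8:143915153-143976734, minus strand), had 1210 CPM in Jag1WT, 1340 in Jag1KO, 903 in Jag1KO + rescue, 1150 in Jag1KO + ctrl, 1250 in siCtrl and 1050 CPM in siJag1 on average. Single libraries ran from 745 to 1790 CPM and overlapped in each comparison, with log2 fold changes of −0.15, −0.36 and 0.26. DST (Entrez gene 667; chr6:56457987-56954830, minus strand) gives the epithelial plakin BPAG1e and also longer isoforms of muscle and nerve, and reads counted per gene do not separate these. It had 534, 662 and 623 CPM in Jag1KO + rescue and 939, 893 and 691 CPM in Jag1KO + ctrl. siCtrl had 661, 639 and 680 CPM, and siJag1 748, 828 and 708 CPM. Both pairs were apart, with the group of more JAG1 lower. Jag1WT (688, 606 and 695 CPM) and Jag1KO (646, 722 and 814 CPM) overlapped. The log2 fold changes were −0.48 (SE 0.176), −0.20 (SE 0.112) and −0.14 (SE 0.127) in that order, and −0.28 together (SE 0.0841, 1.21-fold lower, edgeR adjusted p = 0.128). Without Jag1KO + ctrl replicate 3 the rescue difference of DST was −0.60 and was called (adjusted p = 0.0182; 28.6% of all genes were), and with growth state as a covariate it was −0.23 (adjusted p = 0.584). With that covariate PLEC was at −0.38 for the knockout (adjusted p = 0.177).

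CD151 encodes a tetraspanin that binds laminin-binding integrins directly (Entrez gene 977; chr11:832887-839831, plus strand). It had 372, 362 and 355 CPM in siCtrl and 286, 232 and 327 CPM in siJag1, without overlap. Jag1WT had 325, 379 and 378 CPM, and Jag1KO 356, 287 and 290 CPM. Jag1KO + rescue had 368, 283 and 342 CPM, and Jag1KO + ctrl 280, 286 and 344 CPM, and both of these pairs overlapped. The mean was higher with more JAG1 each time, by 0.21, 0.12 and 0.37 on the log2 scale for the knockout, rescue and siRNA, and 0.23 together (SE 0.0797, 1.17-fold, edgeR adjusted p = 0.166). With growth state as a covariate the rescue value had the opposite sign, −0.09 (adjusted p = 0.834), and the others were 0.13 for the knockout, 0.32 for the siRNA and 0.14 together.

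In the control comparisons JAG1 was not altered on purpose. Of the 8 genes, 0 were called by edgeR, DESeq2 or limma and 0 were without overlap in Jag1KO + ctrl against Jag1KO (0% of 12969 genes were called and 10.1% did not overlap) and in siCtrl against Jag1WT (0% of 12797 and 6.3%). At an unadjusted p below 0.05 there were 1 (ITGB4) and 0 (5.8% and 1.39% of all genes). The largest size of a log2 fold change was 0.87 (ITGB4) in the former and 0.28 (COL17A1) in the latter. These comparisons share libraries with those above.

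Within groups, the 8 genes fell into opposed sets as the replicates varied. Over the 18 deviations of log2(CPM + 1) from the group means, LAMB3, CD151 and PLEC correlated positively (Pearson's r of 0.82 for LAMB3 with CD151, 0.82 for PLEC with CD151 and 0.64 for LAMB3 with PLEC). LAMA3, DST, ITGA6, ITGB4 and COL17A1 formed the other set, with r of 0.91 for LAMA3 with DST, 0.85 for ITGA6 with ITGB4 and 0.83 for ITGA6 with COL17A1. Across the sets every r was negative, among them −0.73 for LAMA3 with LAMB3 and −0.82 for DST with CD151. The points share libraries, depth and growth state, so these values describe the libraries and carry no test.

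**Figure D4:**
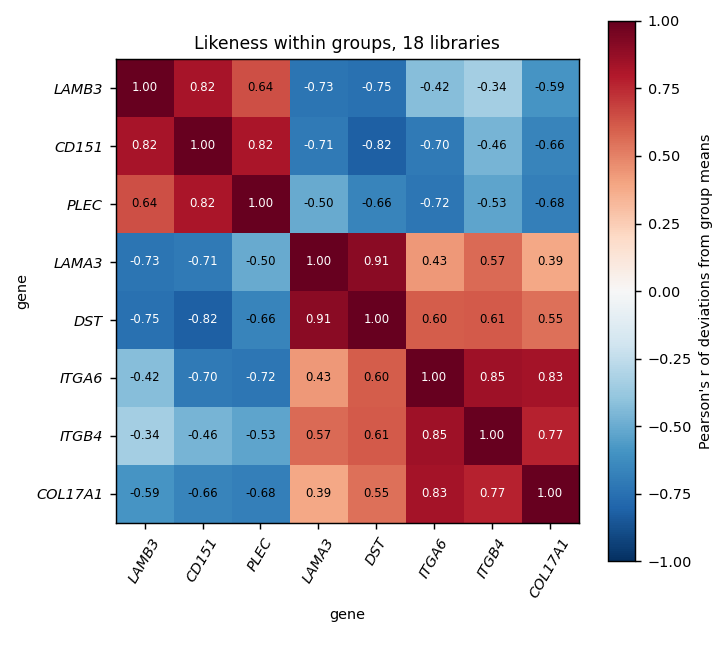
Pearson's r between genes (rows and columns) of log2(CPM + 1) after the group means were taken off, over 18 libraries. LAMB3, CD151 and PLEC form one block of positive values and the other 5 genes another, with negative values between the blocks.

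The same split appeared against growth state. Within groups, r with the mean of the cell cycle genes was 0.90 for COL17A1, 0.69 for ITGA6, 0.64 for DST, 0.59 for ITGB4 and 0.53 for LAMA3. It was −0.85 for LAMB3, −0.78 for CD151 and −0.73 for PLEC. Spearman's rho was 0.82, 0.83, 0.65, 0.68, 0.61, −0.83, −0.72 and −0.71 in the same order. Without the 2 libraries farthest from the median, r remained between 0.46 and 0.92 for the first 5 genes and between −0.78 and −0.71 for the other 3. Libraries with higher cell cycle gene levels thus had more of the integrin and collagen XVII mRNA and less of the laminin β3 mRNA. Replicate 2 had the highest cell cycle gene mean in every group except Jag1KO. These correlations therefore do not separate growth state from replicate number. The part of growth state in the differences between groups was not tested beyond the fits with the covariate.

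**Figure D5:**
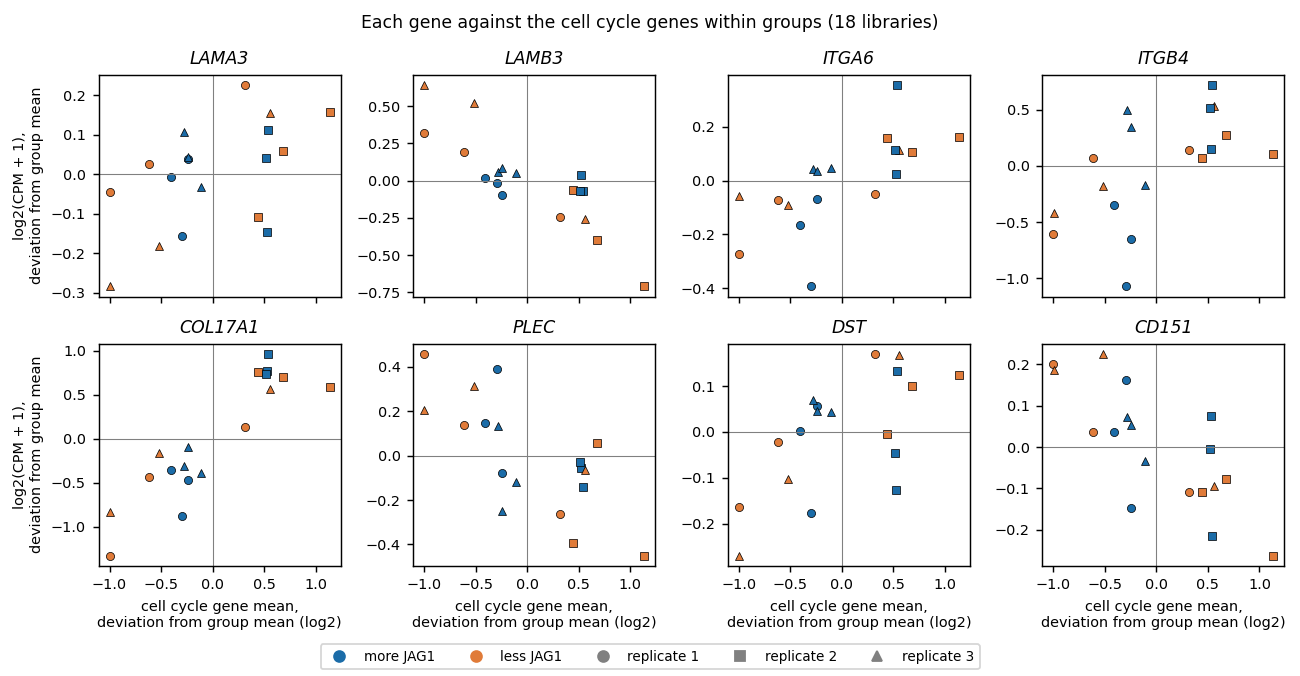
Deviation of each gene's log2(CPM + 1) from its group mean (vertical axes, with their own scales) against that of the cell cycle gene mean (horizontal axis) in 18 libraries. COL17A1 increases (r = 0.90) and LAMB3 decreases (r = −0.85) along the axis.

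The genes whose log2(CPM + 1) was most like each of 7 members over the 18 libraries, of 9229 genes with a mean of at least 10 CPM, were HDAC7 for LAMA3 (Pearson's r = 0.95), TMEM14C for LAMB3 (0.92), FAT3 for ITGA6 (0.94), TCIRG1 for ITGB4 (0.95), PCNX3 for PLEC (0.93), CLN3 for DST (0.95) and DOCK6 for CD151 (0.92). The second most alike were SEMA6B, PNRC1, MAPKBP1, CST2, PITX1, DDX58 and NOTCH1 in the same order (r of 0.92 to 0.95). NOTCH1, a receptor of Jagged1, was thus second for CD151. Over the 18 libraries CD151 also correlated with growth state (r = −0.74). COL17A1, at a mean of 9.59 CPM, was below that minimum and was left out.

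Genes that work beside these were followed as lists. In Jag1WT against Jag1KO, 1 of 7 tested genes for laminin processing and anchoring was called, BMP1, the protease that trims laminin-332 chains (0.86, 1.81-fold higher, edgeR adjusted p = 0.0295). Of 8 tested genes for keratins and vimentin, 1 was called, KRT81 (1.10, adjusted p = 0.0390). Of 7 genes for other laminins and netrin 4, 1 was called, NTN4, whose product binds laminins (0.95, adjusted p = 0.0185). Of 21 focal adhesion genes, 2 were called, ITGB3 (1.22, adjusted p = 0.0421) and ITGA5 (0.87, adjusted p = 0.0209), the integrin subunits of vitronectin and fibronectin receptors. All 5 were higher in Jag1WT and without overlap, and 0.411% of all genes were called in that direction. With the rescue the log2 fold changes were −0.03 for BMP1, 0.44 for KRT81, 0.64 for NTN4, −0.32 for ITGB3 and 0.23 for ITGA5. The edgeR adjusted p was 0.153 or more there. With the siRNA they were 0.76, 1.02, 0.62, 0.75 and 0.51 in the same order (edgeR adjusted p of 0.238 or more). In the joint fit NTN4 (0.73, adjusted p = 0.00483) and KRT81 (0.86, adjusted p = 0.0313) were called (0.204% of all genes in that direction).

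The other 5 lists had 0 genes called by edgeR in the 4 fits. In Jag1WT against Jag1KO, 7 of their genes had an unadjusted p below 0.05 (8.74% of all genes did). By list, in the order of the medians below, these were 1 of 6, 1 of 9, 1 of 12, 2 of 18 and 2 of 9. DESeq2 called 1 of their genes there (1.82% of all genes). Over all 9 lists, edgeR and limma called 0 genes with the rescue, where 39 of 98 tested had an unadjusted p below 0.05 (30.8% of all genes) and DESeq2 called 23 (12.3%). They called 0 with the siRNA, where 14 of 94 had an unadjusted p below 0.05 (3.84% of all genes) and DESeq2 called 3 (0.188%). For the 5 lists, the median log2 fold changes in Jag1WT against Jag1KO were −0.03 for 6 laminin-332 receptor genes, 0.05 for 9 plakin and desmosome genes, 0.01 for 12 tetraspanin genes, −0.04 for 18 α6β4 signalling partners and −0.15 for 9 epithelial and mesenchymal transcription factor genes, against −0.01 for all genes. With the rescue the list medians ran from −0.60 for the keratin and vimentin and for the tetraspanin genes to 0.21 for the α6β4 signalling partners (11 of 18 positive) and 0.41 for the transcription factors (8 of 10 positive). Of the tetraspanin genes 11 of 12 were negative and 6 lower without overlap, and of the keratin and vimentin genes 3 of 8 were lower without overlap, where 16% of all genes were.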

How the data were processed

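Messenger RNA of 18 libraries from stranded mRNA kits was sequenced. Per the labels, the authors aligned to hg38 and counted reads per gene with featureCounts, and the submitters' processing notes also name edgeR 3.28.0 and R 3.6.1. The aligner and the strand setting of the counting are not given in the sources used here. The deposited counts are whole numbers and were not normalized. The deposited CPM are a signal that the authors scaled by TMM, and were used for levels. The deposited RPKM are these values per kb, and only the gene length was taken from them. Another 3 of their columns fit no sample's label and were left out. Rows without a symbol took at most 0.0442% of a library and were left out.

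The counts were tested with edgeR's quasi-likelihood test (4.0.16 in R 4.3.3, TMM, robust) on the 6 libraries of a comparison, after keeping genes that exceeded 1 CPM in 3 or more of them (6 of 12, 9 of 18), with Benjamini-Hochberg adjustment over all genes. ROTS, the authors' own test, was not at hand. Called means an adjusted p below 0.05 and a fold change above 1.5, and for differences between comparisons (12 libraries) the first alone. Intervals (95%) use edgeR's degrees of freedom. The joint fit had the comparison as a covariate. In simulated data for Jag1WT against Jag1KO (12764 genes), 78 of 100 genes changed 2-fold (log2 of 1) and 99 of 100 changed by a log2 of 2 were recovered, with 6 of 12564 unchanged genes called. For the difference between the knockout and rescue effects (12730 genes) 31 and 91 of 100 were recovered. The changed genes were drawn from those with a mean above 10 CPM, so a level such as that of COL17A1 (9.59 CPM) was not covered. Noise was drawn for each gene on its own, without shifts that many genes share, such as growth state. The rescue and siRNA comparisons were not simulated alone.

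Alternatives were DESeq2 1.42.0, limma 3.58.1 with a trend on log2(CPM + 1) (pseudocount 1), DESeq2 size factors, no filter, the replicate number as a block, growth state (97 genes shipped with Seurat 5.3.0) as a covariate, 1 fit over all 18 libraries and leaving out each library. The covariate was not fitted for the differences between comparisons. The fit over all 18 libraries was an alternative only for pairs of groups. Same-numbered libraries deviated together in siCtrl and siJag1 (correlations of 0.544, 0.523 and 0.264) and in siCtrl and Jag1WT (0.597, 0.715 and 0.213), where the numbers were taken as pairs, but not throughout in the other comparisons. Within groups no library was a copy of another, with a chi-square of 7.34 to 106 per degree of freedom between the counts of 18 pairs of replicates. Pairs from different groups were not checked. The labels call the libraries biological replicates without saying how cultures were separated, so p-values measure the spread between these libraries. In bulk RNA, fewer cells of a kind and less RNA per cell cannot be told apart. Gene positions are from GENCODE 44 (hg38). The 8 genes are all named, with ITGA3, ITGB1 and up to 3 called genes of each list by size in each fit, plus the nearest genes by correlation. A gene of the lists is not reported here. The genes and lists were chosen with earlier results of these data known.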

Additional observations from a re-analysis of the deposited data

Results flagged for a closer look

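The effect of JAG1 on ITGB4 had opposite signs in the siRNA and rescue comparisons, with a difference of 2.85 on the log2 scale. It stands here because all 3 siCtrl libraries were above all 3 siJag1 libraries while all 3 Jag1KO + rescue libraries were below all 3 Jag1KO + ctrl libraries. The test of the difference itself gave an adjusted p of 0.0687 by edgeR, above the threshold of 0.05, and 0.000249 by DESeq2. Over the 18 alternatives, the difference was positive and at least 2.45, and its adjusted p from 0.000249 to 0.192. Growth state as a covariate was not among these 18, so the difference was not tested with it. In the separate fits with that covariate, ITGB4 was at 0.83 for the siRNA (edgeR adjusted p = 0.144) and −1.55 for the rescue (adjusted p = 0.369).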

How the results depend on the processing

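The count of the 8 genes called remained 0 under every alternative for the siRNA, the joint fit, both control comparisons and the difference between the knockout and siRNA effects. For Jag1WT against Jag1KO it was 1 with the replicate block (ITGB4, 0.95, edgeR adjusted p = 0.00104), where 2.49% of all genes were called. These libraries did not meet the check of pairing. The count was also 1 with growth state as a covariate (COL17A1, reversed to 1.26), where 2.56% of all genes were called. For the rescue it was 2 with DESeq2 (12.3% of all genes) and 2 in the fit over all 18 libraries (16.6%), LAMA3 and ITGB4 both times. It was 0 to 4 when each library was left out. The 4 (LAMA3, LAMB3, ITGB4 and DST) came without Jag1KO + ctrl replicate 3, where 28.6% of all genes were called. For the difference between the knockout and rescue effects it was 2 with DESeq2 (7.71% of all genes). It was 1 with the replicate block (ITGB4, 3.18, edgeR adjusted p = 0.0491), where 0.492% of all genes were called. With libraries left out it was 0 to 3, the 3 being LAMA3, LAMB3 and ITGB4 without Jag1KO + ctrl replicate 3 (19.9% of all genes). For the difference between the siRNA and rescue effects it was 2 with DESeq2 (4.99% of all genes) and 0 to 2 with libraries left out. The 1 was ITGB4 without Jag1KO + rescue replicate 2 (edgeR adjusted p = 0.0453), where 0.355% of all genes were called. The 2, LAMA3 and ITGB4, came without Jag1KO + ctrl replicate 3 (15.1% of all genes). Without all 3 libraries whose growth state stood apart, an alternative chosen after seeing the data, these counts were 3 (LAMA3, LAMB3 and ITGB4; 19.2% of all genes) and 4 (with DST as well; 32.2% of all genes). The cause was not tested in any of these. The replicate block changed no other call of the 8 genes. COL17A1 had the opposite sign in 7 of the 13 alternatives of Jag1WT against Jag1KO, and ITGB4 kept its sign in all 13 of each of the 3 JAG1 comparisons.

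Calls over all genes moved more. For Jag1WT against Jag1KO they went from 91 to 235 with DESeq2, 171 without the filter, 321 with the block and 330 with the covariate, and from 12 to 840 with libraries left out, 840 being without Jag1KO replicate 1. For the rescue they went from 1 to 1579 with DESeq2, 33 without the filter, 4 with the block, 3 with the covariate and 2121 over 18 libraries, and from 0 to 3626, the last without Jag1KO + ctrl replicate 3. For the siRNA they went from 2 to 24 with DESeq2, 8 without the filter, 4 with the block, 44 with the covariate, 7 over 18 libraries, 0 with limma and 0 to 12 with libraries left out. In the joint fit they went from 55 to 269 with DESeq2, 93 without the filter and 31 with the covariate, and from 25 to 142 with libraries left out. COL17A1 had 28 to 311 reads in a library and ITGB4 53 to 924. Within groups the SD was 41.6% to 75.9% of the mean CPM for COL17A1 and 11% to 58.3% for ITGB4. This spread limits what can be seen of both genes, and its cause was not tested.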
